A study of Mus musculus with 4 samples.

Results

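The genes described here encode the proteins of the mitochondrial ribosome and the channels that bring proteins into mitochondria. They were chosen by gene symbol (Mrpl, Mrps, Timm or Tomm followed by a number, without the -ps pseudogene forms) and then by counts, keeping genes with 10 or more counts in at least 2 of 4 mouse embryos. Of 39179 genes listed in the count tables, 103 carried such a symbol and 99 passed the floor of 10 counts. All 99 were also among the 15822 genes that edgeR tested. They comprised 47 of 48 listed large-subunit genes (Mrpl), 29 of 29 small-subunit genes (Mrps), 14 of 15 inner-membrane genes (Timm) and 9 of 11 outer-membrane genes (Tomm). These roles were assigned by symbol alone. Not every member need belong to the role that its symbol names, so values by role are values by symbol. The floor did not look at the groups, but the set was proposed with results of these embryos known, so its counts below are descriptions read against all tested genes.

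The study measured RNA in individual chimeric embryos staged at E7.75, during gastrulation. Embryonic stem cells (ESCs) that carried a doxycycline-inducible, FLAG-tagged LHX1, a LIM homeodomain transcription factor of the early head region, were cultured in 2i and placed into host embryos of an ARC x RLZRFP cross. In 2 embryos the ESCs carried FLAG-Lhx1, and in 2 they carried FLAG-Lhx1-mt, written FLAG-Lhx1-Δ in the growth protocol. All 4 embryos received doxycycline through the mother, who drank water with 2 mg/mL of it and 5% sucrose for 24 hours, and no embryo without doxycycline was compared here. Every embryo also contained host cells without the transgene. The ESC contribution was described as high for all of them, with no share given, and the sources used here do not say whether 1 or several ESC clones were injected. In all that follows, a pair of values holds replicate 1 and then replicate 2, and FLAG-Lhx1 is set against FLAG-Lhx1-mt in that order. The libraries held 25272436 and 21267116 counts against 23088545 and 30434442. Lhx1 itself, whose counts can come from the transgene and from the cells' own gene, was at 129 and 114 CPM (counts scaled to a common library size) against 126 and 98.5 CPM. Its log2 fold was 0.11 with a standard error (SE) of 0.16, and edgeR gave an adjusted p = 0.733.

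Mitochondria keep a small genome that encodes subunits of the respiratory chain, and they translate it on their own ribosome. All proteins of that ribosome, and nearly all other mitochondrial proteins, are made in the cytosol from nuclear genes and are imported. Precursors are recognised by receptors of the TOM complex, pass the outer membrane through its channel Tomm40, and are then handed to the TIM23 complex for the matrix, to the TIM22 complex for carrier proteins of the inner membrane, or to small Tim chaperones in the intermembrane space. Transcription factors long linked to promoters of such genes include NRF1, the ETS factor GABPA and YY1.

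The promoters of the import channel gene Tomm40 and the import receptor gene Tomm70a, the members with the lowest and the highest fold between the groups, are given first. They are examples, and no comparison is drawn from them. Both are RefSeq sequences on GRCm38.p6, the 250 bases before the annotated start, 5′ to 3′ on the strand of the gene. Capitals mark a match to the ETS motif CCGGAAGT or its reverse complement ACTTCCGG.

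Tomm40 (chr7:19715430-19715679, minus strand): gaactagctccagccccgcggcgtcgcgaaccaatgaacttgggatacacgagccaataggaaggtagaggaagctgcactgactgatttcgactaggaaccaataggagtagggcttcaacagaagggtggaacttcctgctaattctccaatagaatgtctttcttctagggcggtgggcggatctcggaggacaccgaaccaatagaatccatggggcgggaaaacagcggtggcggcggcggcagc

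Tomm70a (chr16:57121464-57121713, plus strand): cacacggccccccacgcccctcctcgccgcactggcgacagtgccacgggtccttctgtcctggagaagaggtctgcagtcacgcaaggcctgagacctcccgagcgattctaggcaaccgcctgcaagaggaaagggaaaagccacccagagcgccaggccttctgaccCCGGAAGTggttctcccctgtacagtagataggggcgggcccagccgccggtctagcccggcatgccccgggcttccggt

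The Tomm40 promoter held no match to any of 3 motifs searched on both strands, and the Tomm70a promoter held the ETS motif 80 bases before the start. The other motifs were a YY1 motif, AAGATGGCG or CGCCATCTT, and the NRF1 palindrome, which is GCGCA followed directly by TGCGC. The YY1 motif was found in 4 members whose RNA differed between the groups in the tests below, and these sites are shown for that reason with 10 bases on each side. Capitals mark the motif.

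Mrpl37 (chr4:107066822-107066850, minus strand): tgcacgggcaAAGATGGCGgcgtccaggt

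Mrps11 (chr7:78783013-78783041, plus strand): ctacgggcgcCGCCATCTTtctgtcttcc

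Mrps18a (chr17:46111005-46111033, plus strand): ggtgcgttccAAGATGGCGgccctcaggg

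Timm50 (chr7:28312017-28312045, minus strand): gcgtcagcgcAAGATGGCGgcctcggcgg

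The motif began at base 27 of the RefSeq transcript of Mrpl37, at base 12 of those of Mrps18a and Timm50, and 108 bases before the start of Mrps11, where it lay on the opposite strand. That site also lies within the member Mrpl46 (chr7:78775236-78783531, minus strand), on the strand of Mrpl46. Mrpl46 did not pass the edgeR test below (adjusted p = 0.317).

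CPM were scaled by TMM, edgeR's correction for library composition, and a log2 fold below 0 means a lower level in FLAG-Lhx1. A gene was called where its p, adjusted by Benjamini-Hochberg over all 15822 tested genes, was under 0.05. Among the 99 members, 14 were called lower in FLAG-Lhx1 (14.1%) and 0 higher. Over all tested genes, 3.55% were called lower and 2.62% higher. All tested genes were not matched to the members for level, and how readily a fold passes depends on level. How far level takes part in these shares was not tested. No member was higher at an unadjusted p under 0.05, and 33 were lower at that level. The share of all tested genes at that level was not computed, so this count has no background. DESeq2 called 18 members lower, where it called 5.57% of the genes it gave an adjusted p, and limma-voom called 14, against 3.5%. Both called 0 members higher, against 3.85% and 2.94% of all genes.

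Beyond the called genes, the members lay mostly on the same side. The log2 fold was below 0 in 84 of 99 members (84.8%) and in 49.1% of all tested genes. In 63 members (63.6%) the level was lower in both FLAG-Lhx1 embryos than in both FLAG-Lhx1-mt embryos, against 25.8% of all genes. In 8 members (8.08%) it was higher in both, against 26.4%. Those 8 were Mrpl1, Mrpl35, Mrpl47, Mrps18c, Mrps33, Timm21, Timm29 and Tomm70a, with log2 folds from 0.10 to 0.31. Mrpl35, the lowest of these, turned to -0.0026 with the length offset described below and to -0.048 with that for length and GC content. The median log2 fold of the members was -0.24, a ratio of 0.848, with quartiles of -0.38 and -0.08. Over all tested genes the median was 0.0089, with quartiles of -0.30 and 0.33. The shift was small for most single genes: a log2 fold of -0.5 or less was reached by 16 members (16.2%), near the 14.5% of all tested genes. Only 9 members had a log2 fold of 0.1 or more, and 19 lay within 0.1 of 0. In RNA from whole embryos, fewer cells of a type and less RNA per cell cannot be told apart.

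**Figure D1:**
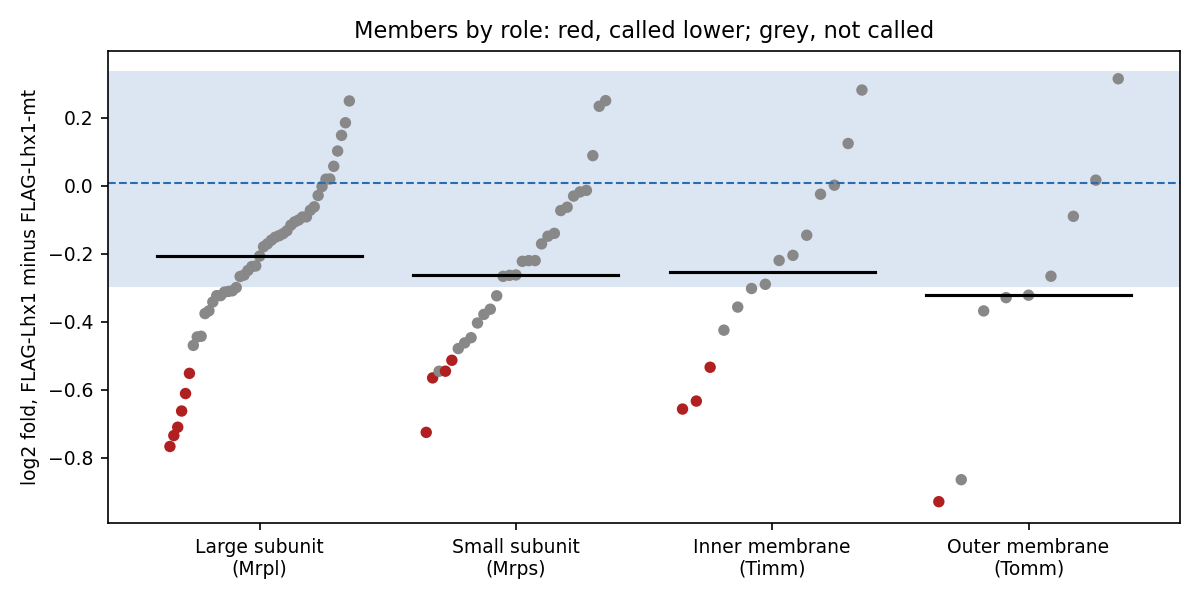
Log2 fold of each tested member (points, ordered by fold within a role), with red for the 14 called lower by edgeR and grey for the rest. Black lines are the medians of the 4 roles, from -0.21 to -0.32, the dashed line is the median of all tested genes (0.0089) and the shaded band holds the middle of all tested genes, from -0.30 to 0.33.

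In the large subunit, which joins amino acids into the chain, 6 of 47 tested members were called lower, 40 had a log2 fold below 0, and the median was -0.21. Mrpl2, a core protein near the catalytic centre (chr17:46646229-46650139 on GRCm38, plus strand), had 129 and 123 CPM in FLAG-Lhx1, against 195 and 224. Both FLAG-Lhx1 embryos were clearly below the other pair, and the log2 fold was -0.73 ± 0.14 (here and below ± SE; edgeR adjusted p = 0.00722). Mrpl37, a subunit with no bacterial counterpart (chr4:107055874-107066868, minus strand), had 108 and 117 CPM against 224 and 159. The FLAG-Lhx1-mt embryos differed from each other more than the FLAG-Lhx1 embryos did, but the groups did not overlap, and the log2 fold was -0.77 ± 0.17 (edgeR adjusted p = 0.0138). Without FLAG-Lhx1-mt replicate 1 the fold of Mrpl37 was -0.51. These 2 genes were the only members called in all 17 alternative analyses.

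Mrpl4, a protein of the exit tunnel wall (chr9:21002738-21008839, plus strand), had 39.1 and 32.5 CPM against 64.0 and 53.3 (-0.71 ± 0.17, edgeR adjusted p = 0.0207). Mrpl12, the stalk protein that recruits translation factors and is also reported to bind the mitochondrial RNA polymerase (chr11:120484613-120489065, plus strand), had 102 and 83.6 CPM against 151 and 143 (-0.66 ± 0.15, edgeR adjusted p = 0.0169). In both genes FLAG-Lhx1 replicate 2 was the lowest embryo. Without it the log2 folds were -0.57 and -0.51, and neither gene passed the threshold in that fit, which called 271 genes lower over the whole table in place of 561. Mrpl38 (28.01 and 27.37 against 45.4 and 39.2 CPM; edgeR adjusted p = 0.0424) and Mrpl34 (155 and 172 against 221 and 258 CPM; edgeR adjusted p = 0.0369) completed the called large-subunit genes, with log2 folds of -0.61 and -0.55.

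The most abundant member behaved otherwise. Mrpl42 (chr10:95480805-95501940, minus strand) had 1201 and 1439 CPM against 1055 and 1267, and the groups overlapped. Its log2 fold was 0.19 ± 0.16 (edgeR adjusted p = 0.559). Per length of the principal transcript it was also the highest of all members, with 1870 CPM per kilobase, followed by Tomm5 at 574 and Mrps18c at 545. The highest fold in the large subunit belonged to Mrpl1, with 162 and 146 CPM against 131 and 128.5 (0.25 ± 0.14, edgeR adjusted p = 0.328). Mrpl15, whose RNA was at 206 and 229.5 CPM against 261 and 257, did not pass the test (-0.25 ± 0.14, edgeR adjusted p = 0.33), although its groups did not overlap.

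Among the Mrps genes, named for the small subunit that reads the messenger RNA, 4 of 29 tested members were called lower. In 26 the log2 fold was below 0, and the median was -0.26. The 4 include Mrps18a, which is described below. Mrps10 (chr17:47368887-47381417, plus strand) had 136 and 162 CPM against 213 and 227. Both FLAG-Lhx1 embryos were below the other pair by more than either pair differed within itself, and the log2 fold was -0.56 ± 0.15 (edgeR adjusted p = 0.0325). Mrps11 (chr7:78783119-78792989, plus strand), a protein of the platform of the subunit, had 70.6 and 75.6 CPM against 105 and 104 (-0.51 ± 0.14, edgeR adjusted p = 0.0452). Mrps12, which lies at the decoding site, had 96.3 and 93.9 CPM against 137 and 128 and fell just short of the threshold (-0.48 ± 0.14, edgeR adjusted p = 0.056). Mrps5 (-0.26 ± 0.16, edgeR adjusted p = 0.36) and Mrps6 (-0.07 ± 0.15, edgeR adjusted p = 0.833) were not called, and in Mrps6 the groups overlapped. Mrps34 had the lowest fold of the small-subunit genes that were not called, at 24.0 and 24.3 against 35.7 and 34.8 CPM (-0.55 ± 0.17, edgeR adjusted p = 0.0695), but exons of other genes cover 77.8% of its exon bases.

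The 3 Mrps18 paralogs gave different values. Mrps18b, at 36.5 and 38.3 CPM against 56.4 and 67.2, fell (-0.73 ± 0.16, edgeR adjusted p = 0.0147). Exons of another gene cover 30.5% of its exon bases, and since the strand setting of the counting is not known, its counts may include reads of that gene. Mrps18a, which in spite of its symbol is a protein of the large subunit in current structures, fell as well, from 139 and 145 CPM in FLAG-Lhx1-mt to 88.8 and 106 (-0.55 ± 0.15, edgeR adjusted p = 0.0395). Mrps18c, the most abundant gene of the small subunit with 453 and 518 CPM against 366 and 450, had the highest fold of that group and was not called (0.25 ± 0.15, edgeR adjusted p = 0.378). Exons of other genes cover 23.2% of it. The differences between the paralogs were not tested.

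**Figure D2:**
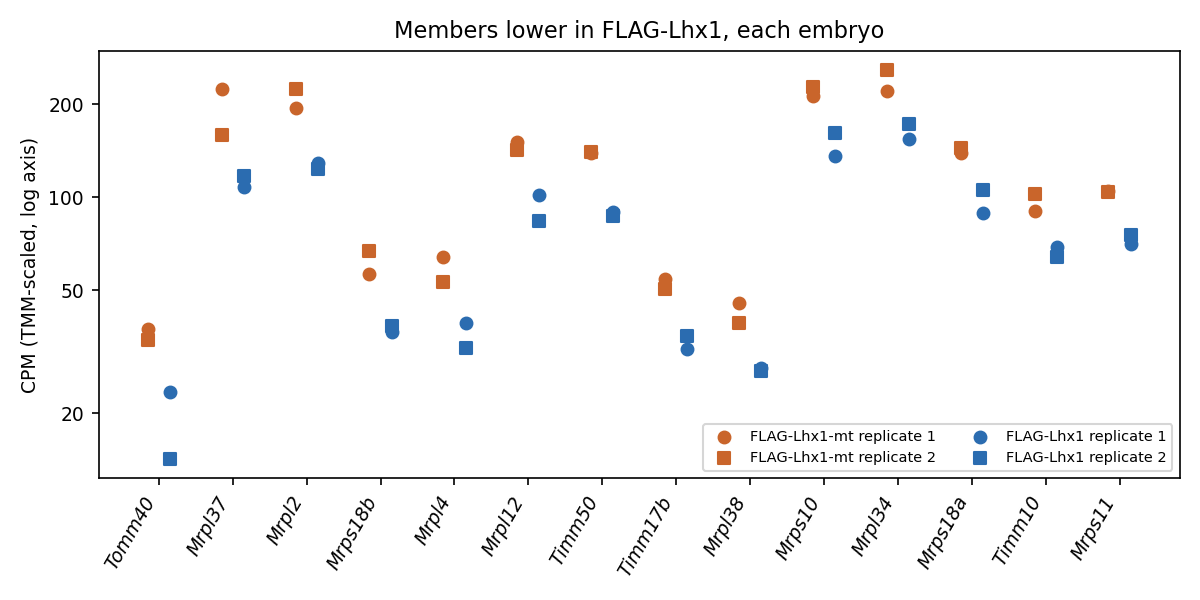
CPM (log axis) of the 14 members called lower, 1 point per embryo, with orange for FLAG-Lhx1-mt, blue for FLAG-Lhx1, circles for replicate 1 and squares for replicate 2. In each gene both blue points lie below both orange points, from Tomm40 at 23.4 and 14.2 against 37.4 and 34.4 CPM to Mrps11 at 70.6 and 75.6 against 105 and 104 CPM.

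Among the inner-membrane genes, 3 of 14 tested members were called lower, 11 had a log2 fold below 0, and the median was -0.25. Timm50, the receptor that takes presequence proteins over from the TOM complex (chr7:28305516-28312072, minus strand), had 89.9 and 86.9 CPM against 139 and 139.8. The embryos of each group were nearly equal, and the log2 fold was -0.66 ± 0.14 (edgeR adjusted p = 0.013). Timm10 (chr2:84826997-84830213, plus strand), a small chaperone that works in a ring with Timm9, had 68.8 and 63.9 CPM against 89.98 and 102 (-0.53 ± 0.15, edgeR adjusted p = 0.044). Its partner Timm9 was not called, at 38.3 and 33.8 against 41.6 and 41.5 CPM (-0.20 ± 0.16, edgeR adjusted p = 0.509).

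Timm17a and Timm17b are alternative subunits of the TIM23 channel. The X-linked Timm17b (chrX:7899357-7908351, plus strand) had 32.2 and 35.5 CPM against 54.5 and 50.4 and fell (-0.63 ± 0.16, edgeR adjusted p = 0.0291). Timm17a, the most abundant inner-membrane gene, had 588 and 662 CPM against 642 and 741, and its groups overlapped (-0.15 ± 0.15, edgeR adjusted p = 0.633). The difference between the pair was not tested. Xist, the RNA of the inactive X, was at 29.4 and 1.93 CPM against 2.66 and 14.5, so each group held 1 embryo with more of it. The other X-linked member, Timm8a1, had 114 and 99.0 CPM against 104 and 109, with a log2 fold of 0.0016 ± 0.14 (edgeR adjusted p = 0.997).

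Other channel and motor subunits were lower in both FLAG-Lhx1 embryos without passing the test. Timm23, the central subunit of the TIM23 channel, had 281 and 296 CPM against 383 and 356 (-0.36 ± 0.14, edgeR adjusted p = 0.153). Timm44, which anchors the import motor, had 58.4 and 48.3 CPM against 65.5 and 66.1 (-0.30 ± 0.15, edgeR adjusted p = 0.278). Timm22, the channel for carrier proteins, had a log2 fold of -0.29 ± 0.14 (edgeR adjusted p = 0.246). Timm21, which links TIM23 to the TOM complex and the respiratory chain, had the highest fold of the inner-membrane genes, at 120.1 and 119 against 102 and 94.4 CPM (0.28 ± 0.14, edgeR adjusted p = 0.266).

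Among the outer-membrane genes, 1 of 9 tested members was called lower, 7 had a log2 fold below 0, and the median was -0.32. Tomm40, the import channel whose promoter is shown above (chr7:19701313-19715438, minus strand), had 23.4 and 14.2 CPM against 37.4 and 34.4. Its log2 fold of -0.93 ± 0.22 was the lowest of all members (edgeR adjusted p = 0.0196). FLAG-Lhx1 replicate 2 was the lowest embryo. Without it the log2 fold of Tomm40 was -0.61, and the gene was not called. Several other members had lower folds in that fit, among them Mrpl37, Mrps18b, Mrpl2 and Timm17b at -0.81 to -0.69. The paralog Tomm40l, at 1.41 and 1.42 against 3.35 and 1.85 CPM, had a similar estimate with a wide error (-0.86 ± 0.45, edgeR adjusted p = 0.28), and exons of other genes cover 64.3% of its exon bases.

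The receptors of the TOM complex were not called. Tomm20, the main receptor for presequences, had 354 and 357 CPM against 428 and 465 (-0.33 ± 0.14, edgeR adjusted p = 0.19). Tomm22, the central receptor, had 142 and 144 CPM against 151 and 153 (-0.09 ± 0.14, edgeR adjusted p = 0.76). Tomm70a, the receptor for carrier proteins whose promoter is shown above (chr16:57121703-57156705, plus strand), was higher in both FLAG-Lhx1 embryos, at 407 and 339.8 against 281 and 319.7 CPM, without passing the test. Its log2 fold of 0.31 ± 0.15 was the highest of all members (edgeR adjusted p = 0.241), and was 0.12 with the length offset and 0.042 with that for length and GC content. Of the small subunits around the channel, Tomm5 had a log2 fold of -0.37 ± 0.15 (edgeR adjusted p = 0.168) and Tomm7 one of 0.017 ± 0.16 (edgeR adjusted p = 0.969).

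The members nearest the floor carry little information. Tomm6, just inside it, had 6 and 13 counts against 10 and 19, and 84.2% of its exon bases are shared with other genes. Just outside were Tomm6os, an RNA gene antisense to Tomm6, with 1 and 8 counts against 3 and 3, Timm8a2 with 1 and 5 against 2 and 0, and Tomm20l with 2 and 3 against 1 and 0. Mrpl53 had 0 counts in every embryo, which allows up to 3 counts or 0.0986 to 0.141 CPM, and exons of other genes cover 88% of it. In all, 12 tested members share over 20% of their exon bases with other genes, among them Mrps18b alone of the 14 called ones. Mrpl33 was not analysed here.

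Summed over the 99 members, the level was 14266 and 15798 CPM in the FLAG-Lhx1 embryos, against 16484 and 17101 CPM. Before TMM scaling this was 1.48% and 1.46% of all counts against 1.66% and 1.76%. Each role gave sums in the same order of the groups. The large subunit summed to 7381 and 8393 CPM against 8721 and 8789, and the small subunit to 3324 and 3662 against 3774 and 3973. The inner-membrane genes summed to 2004 and 2133 CPM against 2363 and 2513, and the outer-membrane genes to 1558 and 1611 against 1626 and 1827. FLAG-Lhx1 replicate 1 was the lowest embryo for 59 of the 99 members and replicate 2 for 27, and the FLAG-Lhx1-mt embryos for 9 and 4. The FLAG-Lhx1-mt embryos were the highest for 41 and 35 members, and the FLAG-Lhx1 embryos for 6 and 17. These counts were made for the members alone and have no background over all tested genes. With 2 embryos against 2, an exact two-sided permutation test of such a sum cannot give a p below 0.333, so none was run.

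**Figure D3:**
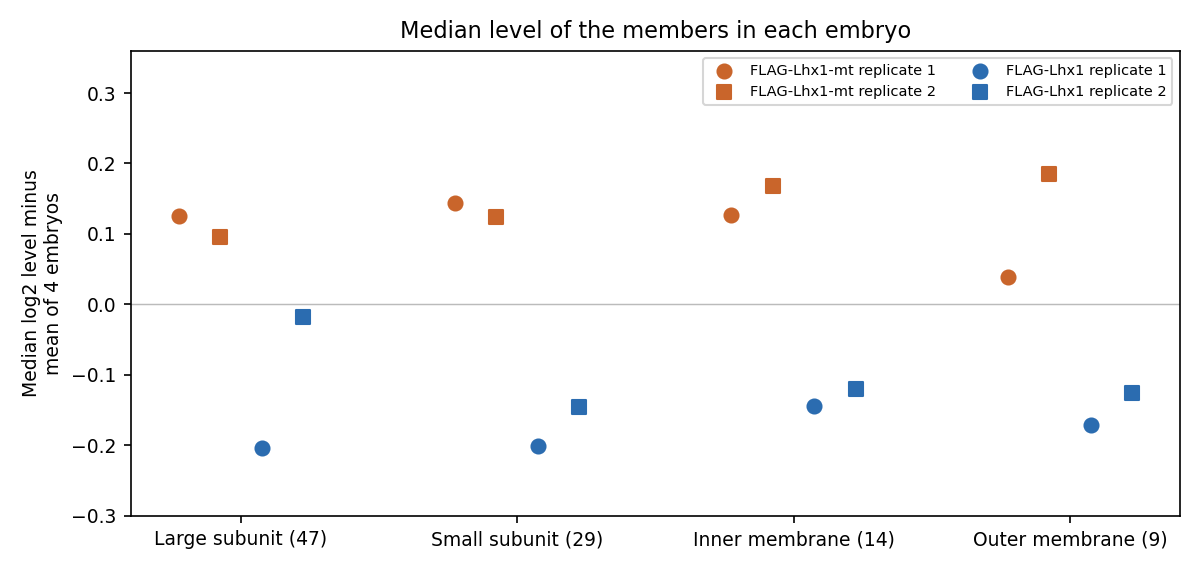
Median over the members of a role of each embryo's log2 level minus the mean of the 4 embryos, 1 point per embryo, with orange for FLAG-Lhx1-mt, blue for FLAG-Lhx1, circles for replicate 1 and squares for replicate 2. In each role both FLAG-Lhx1 points lie below 0 and both FLAG-Lhx1-mt points above it; over all 99 members the medians were -0.20 and -0.05 in FLAG-Lhx1 and 0.13 and 0.12 in FLAG-Lhx1-mt.

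Single embryos moved the number of calls. Without FLAG-Lhx1 replicate 2, edgeR called 3 members lower (Mrpl2, Mrpl37 and Mrps10), where 1.61% of all tested genes were called lower. Without FLAG-Lhx1 replicate 1 it called 6 (Mrpl2, Mrpl4, Mrpl12, Mrpl37, Timm50 and Tomm40), against 2.28%. Without FLAG-Lhx1-mt replicate 1 it called 15, against 4.74%, and without replicate 2 of that group 16, against 5.76%. In these fits a lone embryo is assumed to vary like the remaining pair. The median log2 fold of the members stayed between -0.31 and -0.20. In these 4 fits, which share embryos, 76.8% to 86.9% of the members had a log2 fold below 0, against 47.8% to 51% of all tested genes. Upper-quartile scaling in place of TMM left 8 of the 14 calls, against 2.5% of all genes.

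Transcript length was examined because members are short. The longest annotated transcript had a median of 1962 bases in the members and 3261 over all tested genes, and short genes were lower in FLAG-Lhx1 across the whole table: the median log2 fold was -0.14 for genes under 1000 bases, -0.16 from 1000 to under 2000, -0.03 from 2000 to under 4000 and 0.14 at 4000 bases or more. The members were below these medians in each class, with -0.26 in 19 members, -0.27 in 31, -0.21 in 34 and -0.25 in 15. In the longest class 14 of 15 members had a log2 fold below 0, against 35.7% of all genes of that length. Among genes of 1000 to under 2000 bases, 6 of 31 members were called lower, against 8.54% of all genes. Across genes, the Spearman correlation of length with the log2 fold was 0.147 for the 99 members and 0.245 for the 15679 tested genes with a length. Genes are not independent replicates, and no test was made of these values.

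GC content moved with the fold more closely than length did among the members. The Spearman correlation of GC content with the log2 fold was -0.517 across the 99 members and -0.163 across all genes, although the median GC content was 49.7% in members and 49.6% overall. Of the 14 called members, 13 had a GC content of 50% or more. Calls also rose with GC content across the whole table. Of all genes, 5.59% were called lower at 50% or more, 2.32% from 45% to under 50% and 1.02% below 45%. At 50% or more the median log2 fold was -0.34 in 45 members and -0.09 in all genes. From 45% to under 50% it was -0.16 in 29 members and 0.0059 in all genes, and below 45% it was -0.06 in 25 members and 0.14 in all genes. Level also moved with the fold: the 50 members at or above the median of 119.9 CPM had a median log2 fold of -0.16, and the 49 below it had -0.30. This split was chosen after seeing the data and was not made over all tested genes, so it has no background. How far GC content, length or level take part in the single calls was not tested beyond the offsets that follow.

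With an offset for length fitted in each library, edgeR called 12 members lower, against 3.61% of all tested genes, and 9 of the 14 were among them. Mrpl34, Mrpl38, Mrps11, Mrps18a and Timm10 no longer passed, with log2 folds of -0.40, -0.51, -0.40, -0.48 and -0.39. Mrps25, Mrps26 and Tomm20 passed, with -0.65, -0.61 and -0.50. With an offset for length and GC content together, 12 were called, against 3.75%, and 8 of the 14 were among them: Mrpl12 no longer passed, at -0.51, and Mrpl15 passed, at -0.49. The 4 genes that passed with an offset have transcripts of 4278 to 6073 bases, and among the members the correlation of length with the log2 fold turned to -0.258 with the length offset and -0.326 with both, while over all genes it was -0.0042 and -0.0072. The offsets were fitted over all genes, not over the members. The median log2 fold of the members minus that of all genes was -0.246 without an offset, -0.148 with the length offset and -0.169 with both. With both, the medians were -0.22 and -0.05, and 80 of 99 members lay below 0, against 54.8% of all genes. Exons of other genes cover 69.8% of Mrps25.

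**Figure D4:**
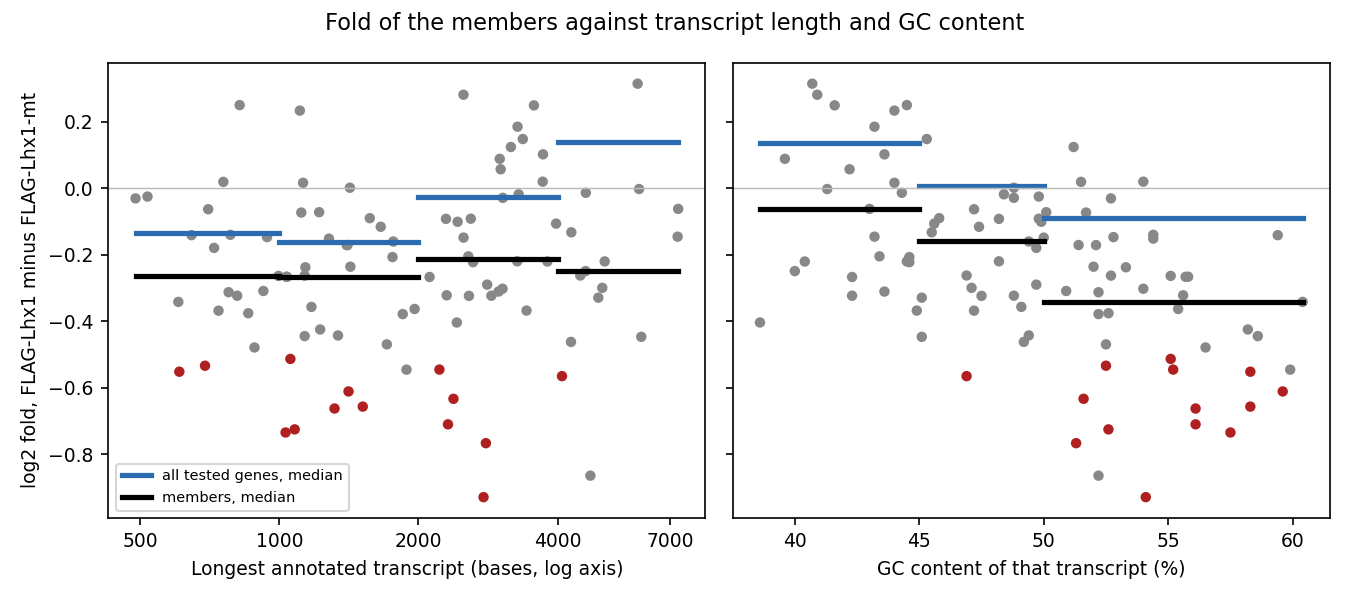
Log2 fold of the 99 tested members (red, called lower; grey, not called) against the length of the longest annotated transcript (left, log axis, in bases) and its GC content (right, in percent). Black lines are the medians of the members and blue lines those of all tested genes in each class: members lie below all genes in every class. Of the 14 red points, 13 lie at a GC content of 50% or more. In that class 5.59% of all genes were called lower, against 2.32% and 1.02% in the 2 lower classes.

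Genes that work with these complexes but carry other symbols were read from lists. Counts in this and the following lists stand beside the shares over all tested genes. Of those, edgeR called 3.55% lower and 2.62% higher, and 49.1% had a log2 fold below 0. No list was tested as a set. Of 30 factors of mitochondrial translation and ribosome assembly, 2 were called lower and 0 higher, and 24 had a log2 fold below 0 (median -0.26). Mrm3, a methyltransferase of the mitochondrial ribosomal RNA, had 26.3 and 29.9 CPM against 53.5 and 48.9 (-0.87 ± 0.16, edgeR adjusted p = 0.00613). Mtg2, a GTPase that assists assembly of the large subunit, had 6.30 and 6.77 CPM against 12.8 and 11.5 (-0.89 ± 0.24, edgeR adjusted p = 0.0403). In both genes the groups did not overlap.

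Of 24 import partners, 4 were called lower and 0 higher, and 16 had a log2 fold below 0 (median -0.23). Mtx1, a metaxin of the outer membrane, had 62.1 and 77.8 CPM against 121 and 114 (-0.75 ± 0.15, edgeR adjusted p = 0.0105). Chchd4, the oxidoreductase that traps imported proteins of the intermembrane space through disulfide bonds, had 135 and 122 CPM against 199 and 205 (-0.65 ± 0.14, edgeR adjusted p = 0.0137). Agk, a lipid kinase that is also a subunit of TIM22, had 21.9 and 17.2 CPM against 37.3 and 28.5 (-0.75 ± 0.20, edgeR adjusted p = 0.0381). Grpel2, a nucleotide exchange factor of the import motor, was the remaining one (-0.57 ± 0.16, edgeR adjusted p = 0.0436). None of these groups overlapped.

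Of 5 ribosomal proteins outside the symbol rule, edgeR, DESeq2 and limma-voom called 0, and 1 was lower at an unadjusted p under 0.05. That gene was Gadd45gip1, at 10.7 and 9.01 against 15.3 and 16.5 CPM (-0.69 ± 0.22, edgeR adjusted p = 0.081). Ptcd3 had a log2 fold of -0.29 ± 0.18 (edgeR adjusted p = 0.376). Of 17 mitochondrial aminoacyl-tRNA synthetases, which charge the transfer RNAs, edgeR called 0, with 3 lower and 0 higher at an unadjusted p under 0.05, and DESeq2 and limma-voom called 1 each. Lars2 lay nearest the threshold, with a lowest level in FLAG-Lhx1 replicate 2 (-0.66 ± 0.19, edgeR adjusted p = 0.0505). It passed the threshold in 15 of 17 alternatives, with log2 folds from -1.07 without FLAG-Lhx1 replicate 1 to -0.35 without replicate 2, and did not pass in the latter fit or with upper-quartile scaling. Next was Tars2 (-0.51 ± 0.17, edgeR adjusted p = 0.0949).

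The genes that the mitochondrial ribosome translates had folds mostly above 0, while their summed level overlapped. Of the 13 protein genes of mitochondrial DNA, 11 were tested and edgeR, DESeq2 and limma-voom called 0, with 0 at an unadjusted p under 0.05. Their median log2 fold was 0.15, and 1 of the 11 was below 0. Their summed level, 22793 and 29077 against 24996 and 24008 CPM, overlapped between the groups. Most of it came from abundant genes such as mt-Cytb, at 10044 and 14300 against 12331 and 10657 CPM (log2 fold 0.08). The highest folds belonged to genes at low counted levels, such as mt-Co2 at 4.47 and 5.24 against 3.56 and 4.51 CPM. Whether the counting captured reads of all these genes alike was not tested, so their counted levels may not be those of the RNA. The smallest p among the 11 tested genes belonged to mt-Atp6, at 13.2 and 17.1 against 11.7 and 12.0 CPM (0.35 ± 0.22, edgeR adjusted p = 0.391), and next was mt-Co3 (0.30 ± 0.28, edgeR adjusted p = 0.591). A difference between these genes and the nuclear members was not tested.

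Proteins of the cytosolic ribosome were listed by symbol for comparison. Of 95 tested symbols, 2 were called lower and 1 higher, with a median log2 fold of -0.06 and 60 below 0. Without 18 symbols that are kinases, binding proteins or variant copies, 78 were tested, 1 was called lower (Rpl29, -0.71 ± 0.18, edgeR adjusted p = 0.0322) and 52 were below 0 at the same median of -0.06. The genes among the 18 that were called were Rpl39l, a copy of Rpl39 with 0.534 and 0.509 against 2.19 and 2.24 CPM (-2.07 ± 0.51, edgeR adjusted p = 0.0263), and Rps6ka6, a kinase and not a ribosomal protein (0.55 ± 0.15, edgeR adjusted p = 0.0462).

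Of 16 regulators of mitochondrial transcription and biogenesis, edgeR and limma-voom called 0 and DESeq2 called 1, with 1 higher and 0 lower at an unadjusted p under 0.05. Yy1, whose motif is shown above, was higher in both FLAG-Lhx1 embryos, at 126 and 115 against 72.3 and 95.6 CPM, and did not pass the test (0.52 ± 0.16, edgeR adjusted p = 0.0675). Nrf1 had a log2 fold of -0.34 ± 0.17 (edgeR adjusted p = 0.254). RefSeq promoters of 250 bases before to 50 after the start matched 87 of the 99 members and 11056 of 14098 tested protein-coding genes. The YY1 motif was in 9 of the 87 (10.3%) and in 2.92% of all these promoters, the ETS motif in 15 (17.2%) and 7.81%, and the NRF1 palindrome in 3 (3.45%) and 1.96%. By call, the YY1 motif was in 4 of 12 promoters of called members and in 5 of 75 of members not called, and the ETS motif in 1 of 12 and 14 of 75. The NRF1 palindrome was in 0 of 12 and 3 of 75. The YY1 sites of called members include that of Mrps11, which also lies within Mrpl46, a member not called. The search covered those exact letters alone, and the YY1 motif also lies in the promoter of Mrpl42, whose groups overlapped.

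Many members share a start region with another gene. A tested protein-coding gene on the opposite strand began within 1000 bases of 39 members (39.4%), against 13.4% of all tested protein-coding genes. Mrps11 and Mrpl46 form 1 such pair in which both are members, with log2 folds of -0.51 and -0.26. Of the 37 neighbours that are not members, 26 had a log2 fold below 0, against 49.1% of all tested genes. Their median was -0.16, against 0.0089 over all tested genes. EdgeR and limma-voom called 0 of them and DESeq2 1, with 7 at an unadjusted p under 0.05. Timm17b and its neighbour Pqbp1 had log2 folds of -0.63 and -0.50 (edgeR adjusted p = 0.0291 and 0.0579), whereas Mrpl37 and Cyb5rl had -0.77 and 0.21 (edgeR adjusted p = 0.0138 and 0.779).

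RNA of cell type markers also differed between the groups, and the markers are given because each library mixes the RNA of all cell types. Their calls stand beside 3.55% of all tested genes called lower and 2.62% called higher. Of 8 epiblast markers, 7 were called lower and 0 higher, and their summed level was 451 and 327 CPM against 929 and 1316. Of 18 markers of the visceral endoderm, the outer layer that absorbs nutrients, 7 were called lower and 1 higher, with sums of 2819 and 3189 CPM against 5179 and 4637. Of 8 markers of nascent and paraxial mesoderm, 4 were called lower (T, Mixl1, Eomes and Mesp1) and 2 higher (Tcf15 and Aldh1a2). Their sums were 207 and 203 CPM against 488 and 548, and most of each sum came from the 4 called lower. The median log2 fold of the 8 was 0.028, with 4 below 0. Of 6 tested neuroectoderm markers, 4 were called higher and 0 lower, with sums of 241 and 213 CPM against 84.2 and 123. Most of the sum in FLAG-Lhx1 came from Hesx1, at 135 and 121 against 13.2 and 23.2 CPM. Otx2, at 63.7 and 56.1 against 57.7 and 83.2 CPM, had the only log2 fold below 0 (-0.23) and was not called. EdgeR called none of the 6 tested trophoblast markers, of which 2 were higher and 1 lower at an unadjusted p under 0.05, while DESeq2 called 1 and limma-voom 0. Summed blood markers were at 2.28 to 4.89 CPM, and those of the maternal decidua at 2.66 to 4.12 CPM. No marker of any list was at 0 in all embryos. The part that these cell types take in the members' levels was not tested.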

How the data were processed

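RNA of 4 individual embryos was sequenced as 100 bp paired ends after Geo-seq amplification without molecular identifiers, per the labels' protocols. The deposited values are raw counts per Ensembl gene, made by the authors with STAR and featureCounts (Subread) on GRCm38 and mm10, per the submitters' processing notes. For these tools the sources used here give no version, annotation release or strand setting, so reads of overlapping genes on opposite strands cannot be told apart. Symbols, positions, lengths and GC contents came from GENCODE vM21, which held 37693 of 39179 IDs (96.2%).

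Genes passing filterByExpr (at least 10 counts, total at least 15) were fitted with edgeR 4.0.16 in R 4.3.3 (TMM, glmQLFit, glmQLFTest, group only), with Benjamini-Hochberg adjustment over all tested genes. Each SE was derived as log2 fold divided by root F. The biological coefficient of variation was 18.2%, with 2 residual and 13.4 prior degrees of freedom. DESeq2 1.42.0 and voom of limma 3.58.1 were alternatives, beside other scaling, filters, length and GC offsets, a replicate block and leaving out each embryo. The steps were run on simulated data with the same dispersion for all genes and no effect of length or GC content. There the main fit recovered 52% of log2 changes of 1 and 99% of those of 2, with 6 false calls among 157. Smaller changes, such as those of the members, were not simulated, and the correction by the offsets was not tested. P-values rest on 2 embryos per group. The upper limit given for a gene without counts covers counting error only. Each SE comes from the edgeR fit, which also includes the estimated variation between embryos.

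The members and lists were chosen with earlier results of these data known. Named are up to 10 called members per direction, the extremes and the most abundant gene of each role, 16 fixed symbols, members below the floor, up to 3 called genes of each list (or the 2 of smallest p) and Lhx1. Mrpl34, Mrps18a, Mrps11, Grpel2 and other genes outside this rule were named after their values were seen.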

Additional observations from a re-analysis of the deposited data

How the results depend on the processing

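Each result was recomputed under 17 alternatives, of which the offset for principal transcript length was chosen after seeing the data. No alternative called a member higher. The count of members called lower was 14, fell to 8 with upper-quartile scaling and to 9 with the replicate block and the length and GC offset together, and ranged from 3 to 16 when 1 embryo was left out. The other alternatives gave 12 to 19, the highest without a count filter. The median log2 fold of the members ranged from -0.31 to -0.18 and moved by less than the spread between embryos (SD 0.076). Its difference from the median of all tested genes moved by more than that, from -0.246 to -0.148 with the length offset, to -0.147 with the offset for principal transcript length and to -0.370 without a count filter. Over all tested genes, leaving out 1 embryo gave 244 to 831 called higher and 271 to 977 called lower, and dropping the count filter gave 952 called lower. The cause of these changes was not tested, apart from the fewer embryos or the added genes themselves.

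Signs changed for 8 genes named here, and the cause was not tested. The log2 fold of Mrps6 was 0.044 with the length offset, 0.068 with the length and GC offset, 0.066 with the replicate block added to it, and 0.050 with the offset for principal transcript length. Timm8a1 was at -0.0024 with DESeq2 size factors, -0.059 without a count filter, -0.00032 with the filter of 10 counts in 2 embryos, -0.0023 by DESeq2 and -0.0016 with the replicate block, and ranged from -0.13 to 0.11 when 1 embryo was left out. Tomm22 was at 0.0027 with the length offset and 0.0032 with that for principal transcript length. Lhx1 was at -0.0043 and -0.038 under these 2 offsets. When 1 embryo was left out, Lhx1 ranged from -0.067 to 0.29 and Ptcd3 from -0.57 to 0.032. Mrpl35 was at -0.0026 with the length offset, -0.048 with the length and GC offset, -0.047 with the replicate block added to it and -0.039 with the offset for principal transcript length. Tomm7 was at -0.048 without a count filter and ranged from -0.20 to 0.18 when 1 embryo was left out, and Tomm6 ranged from -1.16 to 0.31.

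The replicate numbers of the labels are shared by the groups, but the differences between replicates 1 and 2 correlated at only 0.016 between the groups. With the replicate number as a block, edgeR called the same 14 members lower, with 514 genes called higher and 624 lower over the whole table. Tested members had 6 to 39647 counts per embryo, and counting depth limits Tomm6 and Tomm40l at the low end.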
